A study of Mus musculus with 2 samples.

Results

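The cells described here are the most deeply sequenced epithelial cells of the mouse uterus that the rule below calls non-cycling. They number 220 of 8603 cells in 2 droplet-based single-cell libraries. They were 197 of 3653 cells in the control library and 23 of 4950 cells in the knockout library. A barcode was a member if it had at least 20000 unique molecular identifiers (UMIs, each standing for 1 captured transcript), 500 or more detected genes and a mitochondrial share of no more than 20%. The 6 epithelial genes Epcam, Cdh1, Krt7, Krt8, Krt18 and Krt19 had to make up at least 0.3% of its UMIs, with at least 3 of them detected. It had no UMI of Ptprc, the pan-leukocyte gene, and none of Ifnb1, which encodes interferon beta. Fewer than 2 of the 6 cell-division genes Mki67, Top2a, Cdk1, Cenpf, Ube2c and Hmmr were detected in it. The members were thus chosen by measured values, namely depth, the 6 markers, Ptprc, Ifnb1 and the division genes, which are given only as a description.

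Both groups were female mice aged 6 months that carried floxed Prickle1 alleles. The control group had the title Prickle1 f/f, and the knockout group, called cKO here, had the title Prickle1 f/f Ltf-cre because a Cre recombinase driven by Ltf was added. Ltf is transcribed in the uterine epithelium, so deletion is aimed at the cells described here. A separate genotype entry names both samples wild-type C57BL/6J, and the groups used here follow the titles. Whole uteri were dissociated with collagenase and DNase, and the cells of 3 mice were pooled into 1 library per group. With 1 library per group there is no replicate and no test, and every interval given is a 95% interval for counting error only. The effects of genotype, of the pooled animals, of dissociation and of the library cannot be told apart.

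The uterine epithelium is a single layer that lines the lumen (luminal epithelium) and folds into glands (glandular epithelium). Oestrogen makes it secrete antimicrobial and mucosal proteins such as lactoferrin, and progesterone prepares it for the embryo. Interferon made by epithelial or immune cells acts through transcription factors such as Stat2 and Irf9, which bind the interferon-stimulated response element (ISRE) and switch on antiviral genes. Low oxygen acts through hypoxia-inducible factors on glucose transport and glycolysis, and misfolded protein in the endoplasmic reticulum (ER) raises its chaperones. Prickle1 is a core protein of planar cell polarity, the system that aligns cells within the plane of an epithelium.

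The members made up 5.39% of control cells (4.68 to 6.18, exact binomial interval) and 0.465% of cKO cells (0.295 to 0.696), a log2 ratio of -3.54. Among cells that met the epithelial criteria at any depth they made up 197 of 1151 in control, or 17.1%, and 23 of 73 in cKO, or 31.5%. Among cells with at least 20000 UMIs of any type they made up 41.0% in control and 3.32% in cKO. They held 9274359 of 45035801 UMIs in the control library and 1315553 of 57145553 in the cKO library. Depth per member had a median of 39344 UMIs (20161 to 160958) and 5378 genes in control and 42318 UMIs (20625 to 203575) and 5873 genes in cKO. The median mitochondrial share was 4.53% in control and 3.84% in cKO. The nearest cells outside the depth limit had 19933 and 18381 UMIs, and the nearest outside the marker limit had 0.296% and 0.292% of UMIs in the 6 markers, against 0.331% and 0.318% for the lowest members. No barcode was shared by members of the 2 libraries, and 5 barcodes were shared among all cells. The deepest cKO member alone supplied 15.5% of the cKO members' UMIs, against 1.74% for the deepest control member.

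Epcam was detected in all 197 control and 23 cKO members, Cdh1 in 195 and 20, and all 6 markers together in 195 and 20, which describes genes that the rule itself used. The label was checked on genes outside the rule. The epithelial claudins Cldn7 and Cldn3 were each detected in 196 control and 20 cKO members. Against the label, 1 control member and 3 cKO members carried 5 or 6 of the 6 mesothelial genes Msln, Upk3b, Wt1, Lrrn4, Upk1b and Gpm6a. These 4 cells had 0 UMIs of Cdh1, of Cldn7 and of Cldn3, and 46 to 500 UMIs of Dcn, which encodes the matrix protein decorin. Their epithelial label therefore goes against the data although the rule admits them. They held 8.81% of the cKO members' UMIs and 0.483% of the control members' UMIs. Results are given for all members and, where it matters, for the 196 control and 20 cKO members that remain without them.

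**Figure D1:**
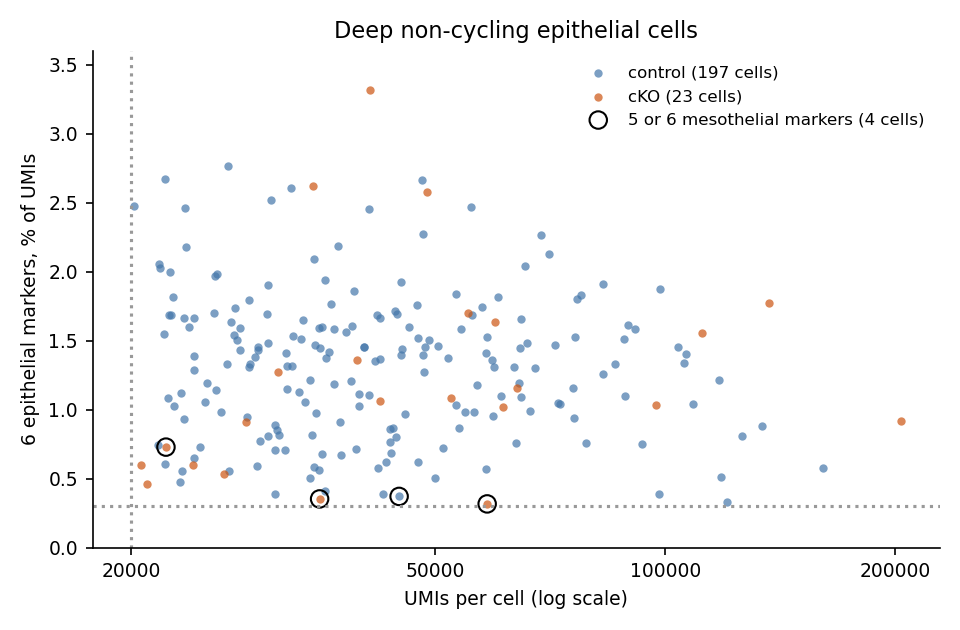
Each point is 1 member, with its UMIs on the x axis (log scale), the share of its UMIs in the 6 epithelial markers on the y axis (percent), and control in blue and cKO in orange; dotted lines mark the limits of the rule. The 23 cKO members have 20625 to 203575 UMIs and the 197 control members 20161 to 160958, and the 4 circled cells with a mesothelial profile lie between 0.318% and 0.729% on the y axis.

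UMIs were summed over the members of a library and expressed per 1000000 UMIs of those members (CPM). Of 8990 genes with at least 50 UMIs over both libraries, 1482 (16.5%) were at least 2-fold higher in cKO and 959 (10.7%) at least 2-fold lower, with a median log2 ratio of 0.19 after 0.5 UMI was added to each sum. Higher genes made up 60.7% of these calls, but 48.7% with TMM factors (edgeR's trimmed mean of M-values), 76.1% with 5 UMIs added and 44.3% over genes with at least 200 UMIs. A balance of higher against lower genes is therefore not read from these data. The control members hold about 7 times the UMIs, so a gene seen only in cKO needs far more CPM to be counted than one seen only in control. In deep stromal cells of the same libraries (145 control and 455 cKO cells), 678 of 10325 genes (6.57%) were at least 2-fold higher in cKO and 409 (3.96%) lower.

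Prickle1 itself (ENSMUSG00000036158; chromosome 15, 93499114 to 93595891, minus strand, GRCm38) could not be followed in these cells. It had 4 UMIs in 4 control members, 0.431 CPM (0.118 to 1.104, exact Poisson interval), and 2 UMIs in 2 cKO members, 1.52 CPM (0.184 to 5.49). Both cKO UMIs lay in cells with a mesothelial profile, so the other 20 cKO members had 0. RNA in barcodes of at most 100 UMIs, used as the cell-free profile, held 1.55 CPM of Prickle1 in control and 5.69 CPM in cKO, more than the members. A loss of the transcript was not detectable at this depth, and counts from the 3-prime end do not show an internal deletion.

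Malat1, a nuclear non-coding RNA, led the named genes in control at 35056 CPM and stood at 15130.5 CPM in cKO. Prap1, a secreted protein of uterine and gut epithelium, had 12828 CPM in control, where single members ranged from 0 to 74328 CPM around a median of 7339. In cKO it had 20296 CPM with a highest cell of 133770.0 CPM. Its cKO median was 3326 CPM, but 11364 CPM without the mesothelial-profile cells, so whether the typical cKO member lay below or above the control median depends on those cells. Actb, a cytoskeletal actin, had 14987 CPM in control against 14903 CPM in cKO. Mt1, a metal-binding metallothionein, was among the 15 most abundant named genes in cKO and not in control, with 882 CPM in control against 6146 CPM in cKO, a 6.97-fold difference (6.76 to 7.19). Its median was 271 CPM over control members and 2633 CPM over cKO members, and 41.6% of its cKO UMIs came from 1 cell. In deep stromal cells the Mt1 ratio of cKO to control was 0.934.

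Of the gene lists examined, the interferon-response list had the lowest median ratio of cKO to control. Of 41 genes of this list in the table, 39 reached 50 UMIs, and 38 of these were at least 2-fold lower in cKO and 0 higher, against 10.7% lower among all genes. The list's median log2 ratio was -3.67, or -3.35 when the 8 genes with 0 cKO UMIs were set to 3 UMIs. Without the 4 mesothelial-profile cells it was -4.20 (-3.85 with the same setting), again with 38 genes lower, against 11.4% of all genes in those cells. Bst2, a membrane protein that tethers virus particles, was the exception, with 179 CPM in control against 115 CPM in cKO. In deep stromal cells 16 of 28 counted genes were lower and 0 higher, with a median of -1.24, against 3.96% lower among all genes there. The rule had set aside 37 deep control epithelial cells with an Ifnb1 UMI and 0 such cKO cells; the part of these cells in the contrast was not tested.

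Many of these genes share a promoter element, and 3 of them with over 2000 control UMIs and 0 to 5 cKO UMIs are printed to show it. RefSeq promoters on GRCm38.p6, from 250 bases before to 50 after the start, were found for 32 of the listed genes. The ISRE core (GAAA, any 2 bases, then GAAA), searched on both strands, was present in 21 of these 32 genes (65.6%) and in 1079 of 27025 genes overall (3.99%). In the lines below capitals mark the matches, each sequence reads 5-prime to 3-prime on the gene's strand, and matches in Isg15 overlap each other.
Ifit1, chr19:34640639-34640938, plus strand: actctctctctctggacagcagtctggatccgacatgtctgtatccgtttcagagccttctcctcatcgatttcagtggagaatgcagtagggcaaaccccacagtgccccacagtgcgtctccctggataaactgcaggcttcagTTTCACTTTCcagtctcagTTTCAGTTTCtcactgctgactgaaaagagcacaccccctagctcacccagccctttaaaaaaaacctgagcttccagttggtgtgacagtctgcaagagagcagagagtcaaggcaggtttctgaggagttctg
Isg15, chr4:156200769-156201068, minus strand: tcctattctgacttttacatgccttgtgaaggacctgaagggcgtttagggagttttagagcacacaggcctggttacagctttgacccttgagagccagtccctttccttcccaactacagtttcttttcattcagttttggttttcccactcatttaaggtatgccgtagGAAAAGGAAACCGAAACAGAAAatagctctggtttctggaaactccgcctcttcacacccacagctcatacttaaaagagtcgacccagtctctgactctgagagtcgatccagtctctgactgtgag
Rsad2, chr12:26456403-26456702, minus strand: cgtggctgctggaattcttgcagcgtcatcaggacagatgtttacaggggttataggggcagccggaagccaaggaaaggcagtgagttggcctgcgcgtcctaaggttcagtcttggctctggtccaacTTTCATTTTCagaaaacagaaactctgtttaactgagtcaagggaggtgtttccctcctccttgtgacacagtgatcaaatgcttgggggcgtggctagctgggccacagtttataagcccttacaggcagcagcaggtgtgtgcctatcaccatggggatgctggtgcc
The matches begin 104 and 85 bases before the start site in Ifit1, 78, 72 and 66 bases before it in Isg15, and 120 bases before it in Rsad2. A match of letters is a description and says nothing of binding in these cells.

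Ifit1, which binds foreign RNA lacking host cap marks, had 2003 UMIs in 110 control members, 216 CPM (207 to 226), and 0 UMIs in cKO, at least 94.7-fold lower. Over single control members it ran from 0 to 8007 CPM with a median of 23.3. Isg15, a ubiquitin-like modifier, had 3354 UMIs in 166 control members (362 CPM) and 2 UMIs in 2 cKO members (1.52 CPM), a log2 ratio of -7.57 (-10.94 to -6.04). Rsad2, which makes a chain-terminating nucleotide and encodes viperin, had 310.0 CPM in control, from 0 to 12973 with a median of 18.6, and 3.80 CPM in cKO, from 0 to 68.4. Without the mesothelial-profile cells the highest cKO member had 20.5 CPM of Rsad2. The cKO cells thus lay at or near 0 for all 3, inside the lower end of a very wide control range.

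Factors that carry the interferon signal showed the same direction. Irf7 had 72.5 CPM in control against 3.80 CPM in cKO, Stat2 64.3 and 9.12, and Irf9 60.4 and 19.0. The cytosolic RNA sensor Ifih1 had 69.3 CPM in control against 3.04 CPM in cKO. Of 7 counted ligand and receptor genes 1 was at least 2-fold lower and 0 higher, against 10.7% and 16.5% of all genes. With so few genes this count is not set apart from those shares. The lower gene was Ifngr1, the ligand-binding chain of the interferon gamma receptor, at 139 CPM in control against 45.6 CPM in cKO. Ifnar1 and Ifnar2, the type I receptor chains, had 29.3 and 15.7 CPM in control and 20.5 and 16.7 CPM in cKO. Ifne, an epithelial type I interferon of the female reproductive tract, had 5.39 and 6.08 CPM.

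Free RNA bears on these values. The cell-free profile of control held 306 CPM of Ifit1, 387 CPM of Isg15 and 407 CPM of Rsad2, more than the members' own sums, and 14.0, 42.9 and 49.01 CPM in cKO. Taking all UMIs of Col1a1, Col1a2, Col3a1 and haemoglobin genes in the members as cell-free gave a cell-free share of 5.72% in control and 9.99% in cKO. These shares can be too high, since the mesothelial-profile cells hold stromal RNA of their own. In cKO the 6 stromal markers, collagens included, summed to 841 CPM with these cells and 232 CPM without them. Myh11, present in the cKO cell-free profile, was seen in 0 of 23 cKO members. With these shares subtracted, 210.2 CPM of Ifit1, 360 CPM of Isg15 and 304 CPM of Rsad2 were left in control and 0 UMIs of each in cKO. As the cKO share can be too high, its 0 counts may come from subtracting too much. With each cell thinned to 20000 UMIs, Isg15 had a UMI in 147 of 197 control members (74.6%, 67.9 to 80.5) and 1 of 23 cKO members (4.35%, 0.110 to 21.9), against 84.3% and 8.70% unthinned. In deep stromal cells thinned alike the shares were 13.1% and 9.45%. Ifit1 was seen in 46.2% of thinned control members and 0 of 23 cKO members. A count of 0 in 23 cells allows a share of cells with a UMI of up to 13.04%, taken as 3 cells of 23, and does not limit the share of cells that express the gene.

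Over single cells the summed interferon list ran from 241 to 37639 CPM in control (median 2255) and from 123 to 2701 CPM in cKO (median 578). Of the 197 control members, 82 lay above every cKO member, and 157 of 196 did once the mesothelial-profile cells were left out. The 23 cKO members lay below the control median in 22 cases. Among control members the list moved with antigen presentation genes (Spearman rho 0.43 over 197 cells of 1 library), and its rho with UMIs per cell was 0.10.

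Genes of antigen presentation were lower in cKO in 11 of 15 counted cases and higher in 0, with a median log2 ratio of -2.06, or -1.52 with H2-DMa, at 0 cKO UMIs, set to 3 UMIs. Among all genes 10.7% were lower. Nlrc5, which switches on class I genes, had 17.0 CPM in control against 0.760 CPM in cKO, and the peptide transporter Tap1 had 30.0 and 6.84 CPM. B2m, the light chain of class I, had 844 and 405 CPM, and H2-K1 798 and 720 CPM. The class II genes H2-Aa, H2-Ab1, H2-Eb1 and Cd74 had 9.92, 23.1, 12.7 and 140 CPM in control, all under the cell-free profile of that library (170, 150.1, 98.1 and 450.0 CPM). After subtraction of cell-free RNA, H2-Aa had 1.64 UMIs left in control and 0 in cKO, so its direction is not supported here. In deep stromal cells 3 of 12 counted genes of this list were lower, against 3.96% of all genes there.

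Secretory and oestrogen-response genes were the next group. Of 18 counted genes 7 were at least 2-fold lower in cKO and 1 higher, with a median log2 ratio of -0.82, against 10.7% lower and 16.5% higher among all genes. Clca1, a secreted modulator of chloride channels in mucus-making epithelia, had 8347 UMIs in 184 control members, 900.0 CPM (881 to 919.5). In cKO it had 3 UMIs in 3 members, 2.28 CPM (0.470 to 6.66), a log2 ratio of -8.40 (-10.90 to -7.08). Its control members ran from 0 to 6456 CPM with a median of 371, and the highest cKO member had 23.6 CPM. Cited1, a transcriptional co-activator that responds to oestrogen, had 155 CPM in control and 1 UMI (0.760 CPM) in cKO.

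Ltf, which encodes lactoferrin and drives the Cre, had 1669 CPM in control, with single members from 0 to 6402 CPM and a median of 1436. In cKO it had 137 CPM, from 0 to 432 CPM with a median of 20.6, a 12.2-fold difference (10.5 to 14.2). The cKO median was 64.9 CPM without the mesothelial-profile cells. Only the cKO group carries the Ltf-driven Cre, and its effect on the Ltf count was not tested. After thinning, 196 of 197 control members and 13 of 23 cKO members (56.5%, 34.5 to 76.8) had a Ltf UMI, against 4.83% of control and 0 of 455 cKO stromal cells, and 48.9% of the cKO UMIs came from 1 cell. Pigr, which carries IgA across the epithelium, had 245 and 19.0 CPM, and Cfb, complement factor B, had 454 and 55.5 CPM. Lcn2 (lipocalin 2) had 4729 and 2621 CPM and C3 2247 and 1641 CPM, neither past 2-fold. Slpi, a secreted protease inhibitor, was the gene that passed 2-fold upward, at 42.8 and 160 CPM, with a log2 ratio of 1.91, or 1.08 without the mesothelial-profile cells. Sprr2f, a small proline-rich protein of cornified layers, had 5557 and 2440.0 CPM, and the nearly identical copies of this family make its count uncertain.

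The counts for hormone receptor and cofactor genes depended on the mesothelial-profile cells. Of 11 counted genes 0 were at least 2-fold lower and 1 was higher (median log2 ratio -0.24), against 10.7% and 16.5% of all genes. The higher one was Fkbp4, a receptor co-chaperone, at 66.5 CPM in control against 153 CPM in cKO. Esr1 (oestrogen receptor alpha) had 97.1 CPM in control against 61.6 CPM in cKO, and Pgr (progesterone receptor) 25.9 and 22.04. Without the mesothelial-profile cells 3 of the 11 were lower and 2 higher (median -0.52), against 11.4% and 15.2% of all genes. Of 9 counted progesterone-response genes 1 was higher, Fst (follistatin), at 82.5 and 277 CPM, and 2 were lower, Per1 and Errfi1, against 16.5% higher and 10.7% lower among all genes. Ihh, the hedgehog ligand that progesterone induces in the epithelium, had 0 UMIs in control and 34 UMIs in 6 cKO members (25.8 CPM, 17.9 to 36.1), under the limit of 50 UMIs. No full oestrogen response element (GGTCA, any 3 bases, then TGACC), searched on both strands, was found in the RefSeq promoters of 18 listed oestrogen-response genes, and 20 of 27025 promoters (0.0740%) held one.

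**Figure D2:**
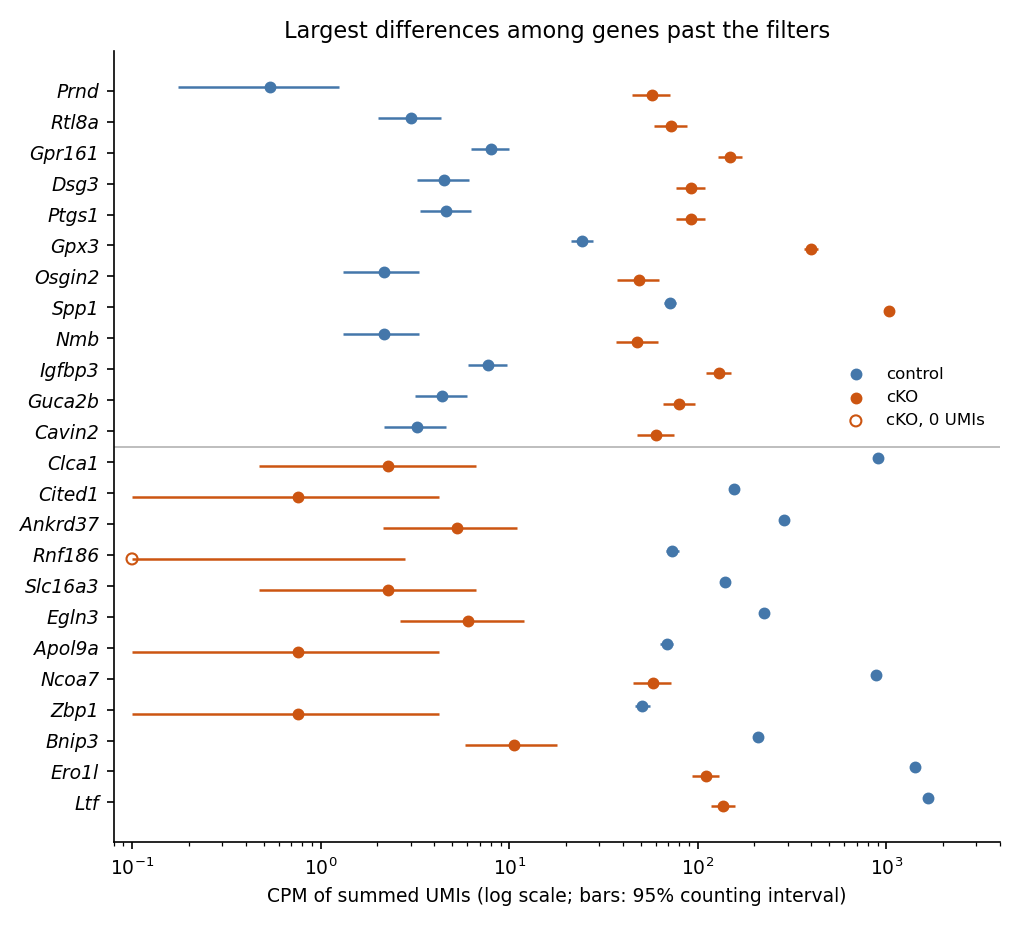
CPM of summed UMIs (x axis, log scale) in control (blue) and cKO (orange) for the 12 genes in each direction with the largest difference among those that reached 50 UMIs in the library where they are higher, in at least 25% of its members, at most 50% of them in 1 cell and a CPM not under its cell-free profile, with bars for 95% counting intervals cut at 0.1 CPM; the open circle marks Rnf186, with 0 cKO UMIs. Upper genes, picked as higher in cKO, run from 0.539 CPM (Prnd) to 71.4 CPM (Spp1) in control. Lower genes, picked as lower in cKO, run from 50.9 CPM (Zbp1) to 1669 CPM (Ltf) in control. Ifit1, Isg15 and Rsad2, under the control cell-free profile, are not among the genes shown.

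Hypoxia and glycolysis genes were lower in cKO in 10 of 14 cases and higher in 0, with a median log2 ratio of -1.68, against 10.7% lower among all genes. Without the mesothelial-profile cells 11 genes were lower and the median was -2.04, against 11.4% of all genes. Ankrd37, a direct target of hypoxia-inducible factor, had 2670 UMIs in 161 control members (288 CPM) and 7 UMIs in 5 cKO members (5.32 CPM), a 54.1-fold difference (26.2 to 135). Egln3, an oxygen-sensing prolyl hydroxylase, had 224 and 6.08 CPM, and Bnip3, a mitophagy receptor, 210 and 10.6 CPM. Slc2a1, the glucose transporter GLUT1, had 589 CPM in control against 80.6 CPM in cKO, with medians of 575 and 70.7 CPM per member. The lactate exporter Slc16a3, outside the list, had 139 and 2.28 CPM. Adm, which encodes adrenomedullin, was the same in both at 881 and 870.4 CPM (log2 ratio -0.017, interval -0.11 to 0.072).

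The ER stress list was also lower, with 7 of 12 genes lower and 0 higher and a median of -1.02, against 10.7% lower among all genes. Hspa5, the main ER chaperone, had 5131 CPM in control against 1231 CPM in cKO. Herpud1, which helps remove misfolded protein, had 525.5 and 92.7 CPM, and Ddit3, a stress-induced transcription factor, 268 and 21.3 CPM. Ero1l, an ER oxidase, had 1416 and 111 CPM, a 12.8-fold difference (10.8 to 15.1). Xbp1 had 263 and 250.1 CPM, and Atf4 830.0 and 667 CPM, neither past 2-fold. In deep stromal cells neither list was lower as a whole: 3 of 12 hypoxia genes were higher and 2 lower (median 0.49), and 4 of 12 ER stress genes were higher and 0 lower (median 0.87), against 6.57% higher and 3.96% lower among all genes there.

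**Figure D3:**
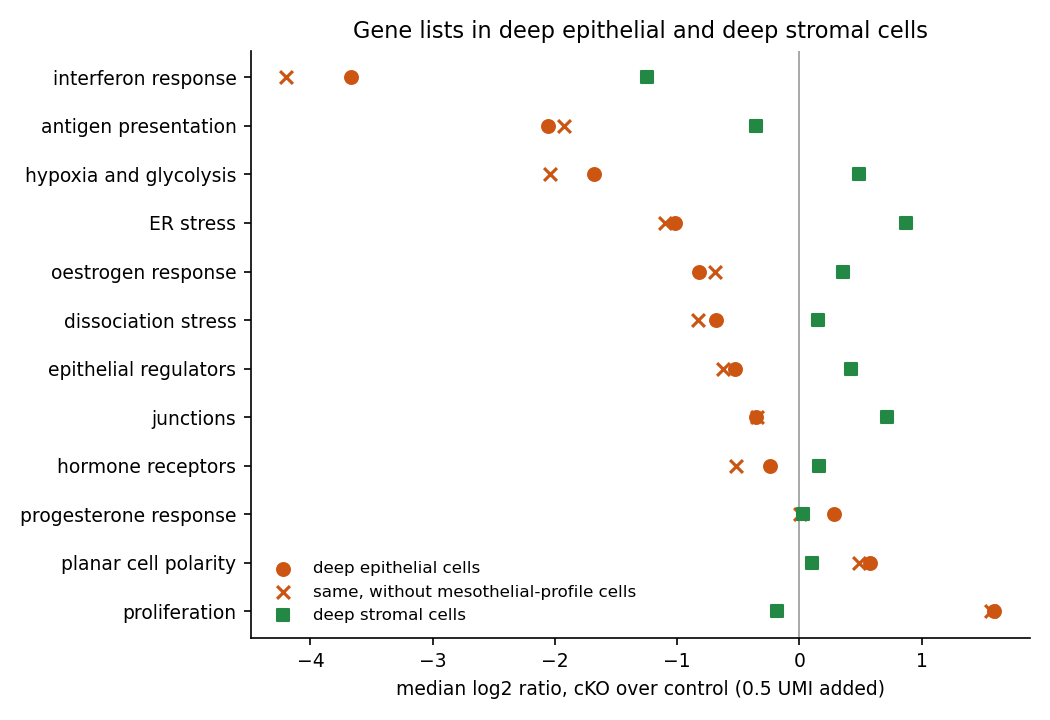
Median log2 ratio of cKO over control (x axis) for 12 gene lists in deep epithelial members (orange circles), in the same members without the mesothelial-profile cells (orange crosses) and in deep stromal cells (green squares). The interferon list is lower in both cell types, at -3.67 and -1.24, while the hypoxia and ER stress lists are lower in the epithelial members and not in stromal cells.

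The control members varied widely on the hypoxia list. Its summed level ran from 820.5 to 16887 CPM over control members (median 7856) and from 1134 to 6206 CPM over cKO members (median 2599). Of the 197 control members 127 lay above every cKO member, and 35 lay at or below the cKO median. Ordered by this sum, the lowest of 4 bins of control members (50 cells, 820.5 to 4576 CPM) had a median of 1922 CPM, below that of cKO. The other 3 bins of 49 cells had medians of 6342, 9295 and 11535 CPM. The bound of the lowest bin is a point on a continuous range, with 10 control members within 10% of it.

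Since the bins were ordered by the hypoxia sum, the order of its genes across them is set by that choice, and the values are a description. The mean over cells of Slc2a1 was 79.5 CPM there and 83.6 CPM in cKO, against 1049.6 CPM in the highest bin. Ero1l, which is on neither list, had means of 129 CPM in the lowest bin, 107 CPM in cKO and 2940 CPM in the highest bin. Hspa5, of the ER stress list, had 1005, 1243 and 8636 CPM in the same order. Ankrd37 and Egln3, of the hypoxia list, had 23.3 and 36.2 CPM in the lowest control bin and 4.18 and 9.43 CPM in cKO. Without the mesothelial-profile cells their cKO means were 3.95 and 4.64 CPM.

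Secretory and interferon genes took no part in the ordering of the bins. Clca1 had a mean of 1981 CPM in the lowest hypoxia bin, 326 CPM in the highest bin and 1.69 CPM in cKO. Ltf had means of 1717 CPM in the lowest and 1429 CPM in the highest bin, and 79.1 CPM in cKO. The oestrogen-response list as a whole had a median of 23285 CPM in the lowest bin, 14380 CPM in the highest and 6352 CPM in cKO. Isg15 had means of 347 and 228 CPM in these bins and 2.28 CPM in cKO, or 0.366 CPM without the mesothelial-profile cells. Cited1 had 12.2 CPM in the lowest bin, 261 CPM in the highest and 0.319 CPM in cKO.

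Across the 197 control members the hypoxia and ER stress sums moved together (Spearman rho 0.70), and both moved against the oestrogen-response sum (rho -0.39 and -0.55). These are descriptions of cells of 1 library that share its preparation. Sums in CPM also share a total within a cell, so one list takes room from another. Depth moved little with them: the median was 40733 UMIs in the lowest bin and 36343 in the highest, and rho between UMIs and the hypoxia sum was -0.11. The median mitochondrial share was 5.46% in the lowest bin and 4.32% in the highest. Whether the bins correspond to luminal and glandular cells was not resolved, since the luminal list had medians of 1321 and 986 CPM and the glandular list 622 and 314 CPM in the lowest and highest bins, both higher in the same one.

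**Figure D4:**
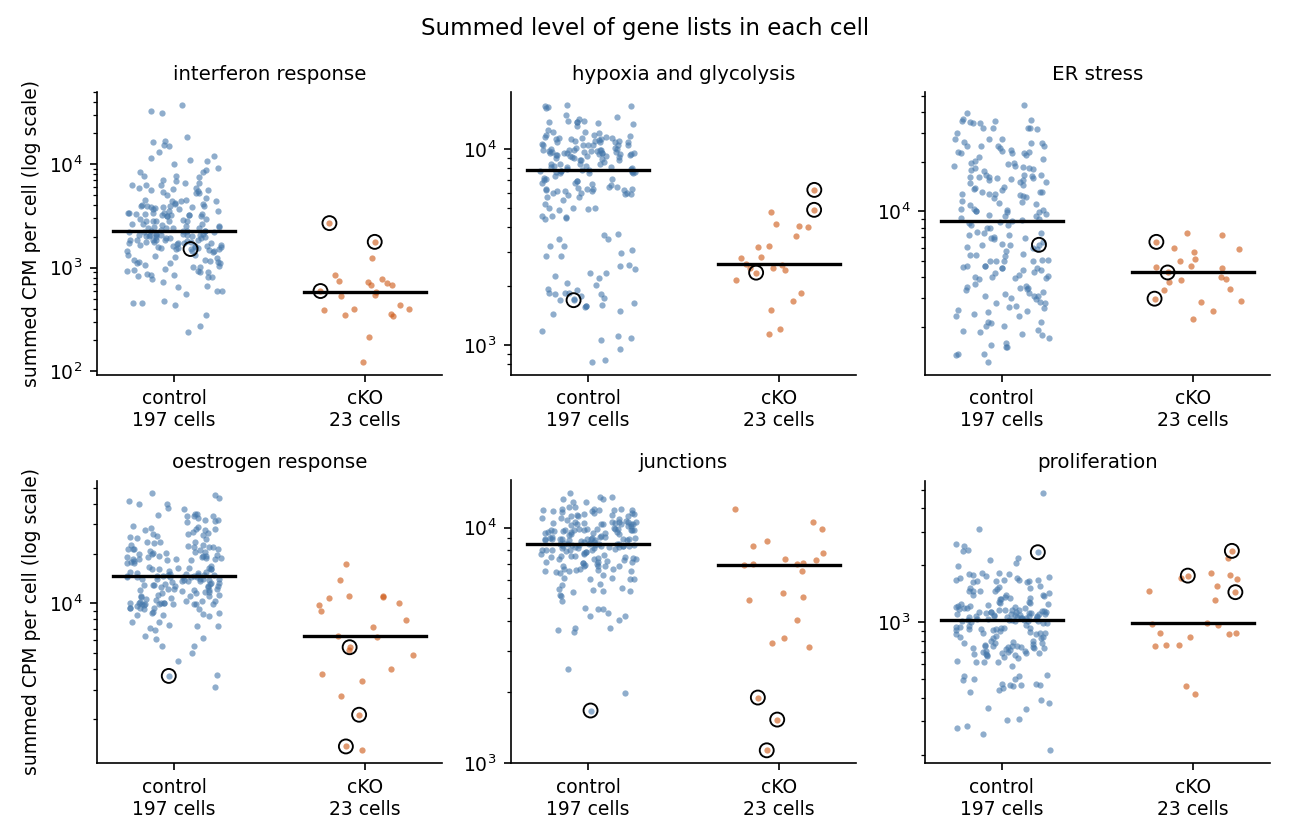
Summed CPM of 6 gene lists in each member (y axes, log scale), with control in blue (197 cells), cKO in orange (23 cells), black bars at the medians and circles around the 4 mesothelial-profile cells; sideways position is random. Control members spread from 820.5 to 16887 CPM for hypoxia and glycolysis, and the cKO members sit within the lower end of that spread.

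**Figure D5:**
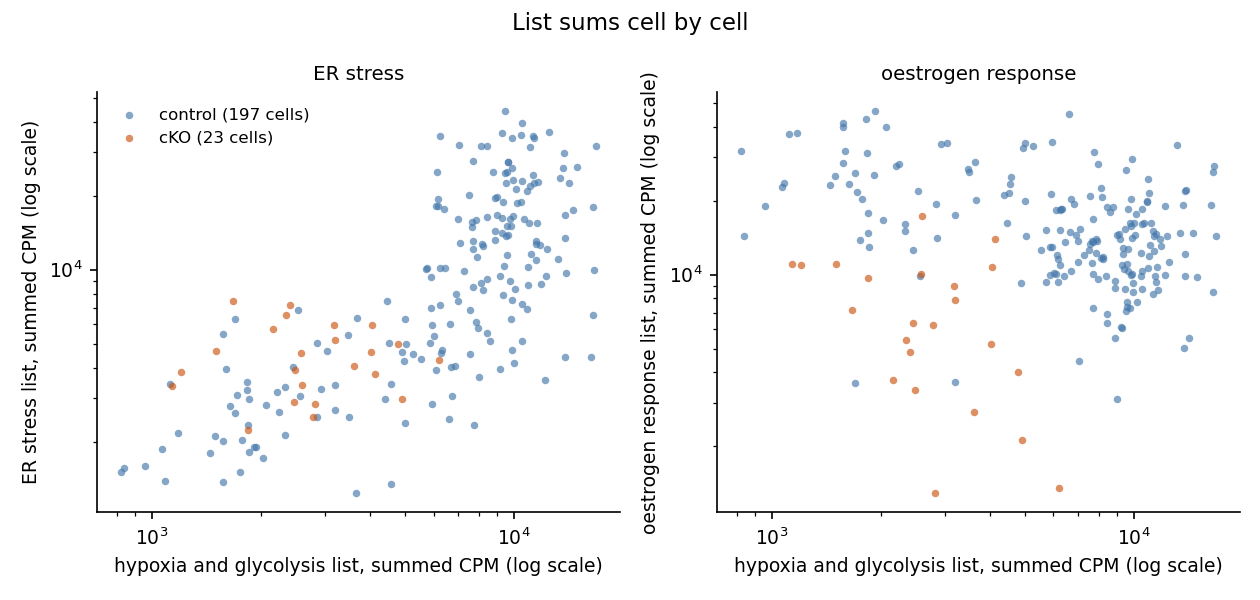
Summed CPM of the ER stress list (left) and the oestrogen-response list (right) against that of the hypoxia and glycolysis list in each member, all axes on a log scale, with control in blue and cKO in orange. On the left the cKO members overlap control members of low hypoxia sum, and on the right they lie between 1289 and 17296 CPM, against 3117 to 46308 CPM in control.

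Of the 12 upward genes that passed these filters, 4 are described first. Gpx3, a secreted glutathione peroxidase, had 24.5 CPM in control against 398 CPM in cKO, which is 16.3-fold higher (13.9 to 19.1). It had UMIs in 19 of 23 cKO members. Over single cells it ran from 0 to 195 CPM in control (median 0) and from 0 to 2098 CPM in cKO (median 257), so the groups overlapped. The cKO median was 420 CPM without the mesothelial-profile cells. Spp1, the secreted adhesion protein osteopontin, had 71.4 and 1039 CPM, with cKO members from 0 to 7794 CPM around a median of 65.9, or 527 without the mesothelial-profile cells. Spp1 had 0 UMIs in control stromal cells and 0.421 CPM in cKO ones. Ptgs1, the cyclooxygenase COX-1 of prostaglandin synthesis, had 4.64 CPM in control against 92.0 CPM in cKO, in 16 cKO members. All 3 mesothelial-profile cKO cells were among these 16, one of them the highest at 1020.2 CPM. Without them Ptgs1 had 55.9 CPM in 13 of 20 cKO members, up to 313 CPM, and its log2 ratio was 3.65 in place of 4.30.

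Dsg3, a desmosomal cadherin best known from stratified epithelium, had 42 UMIs in 16 of 197 control members (4.53 CPM) and 121 UMIs in 14 of 23 cKO members (92.0 CPM), a 20.3-fold difference (14.2 to 29.6). After thinning, 5.08% of control and 60.9% of cKO members (38.5 to 80.3) had a Dsg3 UMI, against 0 of 145 and 0 of 455 stromal cells. Krt6a, a keratin of stressed and stratified epithelium, had 103 and 664 CPM, in 40 control and 10 cKO members, and Krt17 25.8 and 72.2 CPM, in 28 and 9. Of the 4 counted genes of the stratified or basal list 3 were higher and 0 lower, against 16.5% and 10.7% of all genes. The defining basal genes Krt5 and Trp63 had 1 and 0 UMIs in control and 0 and 1 UMI in cKO.

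The other leading genes were Prnd (0.539 and 57.0 CPM), which encodes the prion-like protein doppel, and Gpr161 (7.98 and 149 CPM), a receptor that restrains hedgehog signalling in cilia. Igfbp3, which binds insulin-like growth factors, had 7.76 and 129 CPM, and Guca2b, the gut hormone uroguanylin, 4.42 and 79.8 CPM. Rtl8a, Osgin2, Nmb and Cavin2 completed the 12, with 2.16 to 3.23 CPM in control and 47.9 to 72.2 CPM in cKO. Single cells weighed heavily here: 1 member supplied 47.1% of the cKO UMIs of Igfbp3, 41.9% of Guca2b, 49.4% of Cavin2 and 37.3% of Prnd. Without the mesothelial-profile cells Cavin2 had 33.3 CPM in cKO in place of 60.1 CPM. All 12 genes, and the 12 downward genes that passed the same filters, stayed past 2-fold under each of 12 settings compared. They were picked for the largest differences in the same data, so this was largely set by the pick and is no sign of robustness. Their sizes moved. The log2 ratio of Igfbp3, 4.05 here, ran from 3.35 to 5.68 over these settings, that of Slc16a3, -5.71 here, from -8.42 to -4.52, and that of Ltf, -3.60 here, from -4.44 to -3.25. For Rnf186, with 0 cKO UMIs, the ratio rests on the UMIs added and was -4.28 with 5 UMIs added.

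The remaining downward genes were Rnf186, Apol9a, Ncoa7 and Zbp1. Rnf186, an ER-resident ubiquitin ligase, had 681 UMIs in 130 control members and 0 in cKO, at least 32.2-fold lower. Ncoa7 had 878 and 57.8 CPM, and in control its mean was 240 CPM in the lowest hypoxia bin and 1111 CPM in the highest. Zbp1, a sensor of left-handed nucleic acid that interferon induces, had 50.9 CPM in control and 1 UMI in cKO, and Apol9a had 68.7 CPM and 1 UMI.

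Of 26 counted junction genes 3 were at least 2-fold lower in cKO and 0 higher (median -0.35), namely Cldn10, Marveld3 and Nectin4, against 10.7% lower and 16.5% higher among all genes. Without the mesothelial-profile cells 1 was lower, against 11.4% of all genes. The summed list had a median of 8550.0 CPM over control members and 6909 CPM over cKO members, and 19 of 23 cKO members lay below the control median. Cldn7, a claudin of tight junctions, had 1393 CPM in control against 1548 CPM in cKO, Dsp, the desmosome plaque protein, 313 and 319 CPM, and Ctnnb1, which encodes beta-catenin, 395 and 355 CPM. Epithelial regulators were lower in 4 of 16 cases and higher in 1, against the same 10.7% and 16.5%. Leaving out the mesothelial-profile cells, 3 were lower and 2 higher, against 11.4% and 15.2% of all genes. Elf3, an epithelial ETS factor, had 631 and 209 CPM, and Sox17, needed for uterine glands and implantation, 77.6 and 163 CPM.

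Planar cell polarity genes were counted in 13 of 20 cases, with 4 higher, 0 lower and a median of 0.57, from few UMIs and against 16.5% higher among all genes. Without the mesothelial-profile cells 3 of 13 were higher, against 15.2% of all genes. Vangl1, a core membrane component, had 81 UMIs in control and 29 in cKO, 8.73 and 22.04 CPM, and Fzd3, a Wnt-binding receptor, 6.47 and 15.2 CPM. The co-receptor Ptk7 had 10.998 and 26.6 CPM, and the ligand Wnt5a 14.99 and 31.2 CPM. Vangl2 had 10.5 and 6.84 CPM. In cKO the cell-free profile held 7.44 CPM of Ptk7 and 28.01 CPM of Wnt5a, the latter close to the members' level. In the Wnt pathway list 3 of 13 genes were higher and 4 lower, against 16.5% and 10.7%. Wnt4 had 62.4 and 27.4 CPM, and Wnt7a, a luminal ligand needed for gland formation, 35.5 and 98.1 CPM.

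Luminal and glandular markers gave no common direction. Of 8 luminal genes 2 were higher (Wnt7a and Calb1) and 3 lower (Lpar3, Muc4 and Krt13). Muc4, a membrane mucin, had 398 CPM in control against 78.3 CPM in cKO. Of 5 glandular genes 2 were higher (Prss29 and Aldh1a1) and 2 lower (Lif and Prom1), and all 53 Prss29 UMIs came from 1 cKO member. Among all genes 16.5% were higher and 10.7% lower. Foxa2, the factor that marks gland cells, was detected in 6 control and 2 cKO members. Krt13 had 160 UMIs in 34 control and 2 UMIs in 2 cKO members, and its log2 ratio turned from -3.19 to 1.69 with a depth limit of 10000 UMIs. Neither type can be assigned to the members from these markers.

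Cell-cycle genes outside the rule were higher in cKO in 8 of 10 counted cases and lower in 1, with a median log2 ratio of 1.59, against 16.5% higher among all genes. Ccnd1, the G1 cyclin, had 68.9 CPM in control against 199 CPM in cKO, and its median per member was 31.5 and 172 CPM. Pcna, the replication clamp, had 45.9 and 144 CPM, and Mcm2, of the replicative helicase, 5.28 and 33.4 CPM. Cdkn1a, which encodes the cell-cycle inhibitor p21, was the one that was lower, at 792 and 350.4 CPM. The rule leaves out cells with 2 or more of the 6 division genes in both libraries but admits cells with 1. Such cells were 39 of 197 control members (19.8%) and 8 of 23 cKO members (34.8%), and their part in these values was not tested. The higher genes numbered 4 of 7 counted with a marker share of at least 0.6%, 4 of 6 with thinned cells and 4 of 5 with at least 200 UMIs. The summed list of 18 genes, of which Cdkn1a made up most in control, had medians of 1026 and 996 CPM per member.

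Ion and water transport genes were counted in 12 of 16 cases, with 3 higher and 2 lower, against 16.5% higher and 10.7% lower among all genes. The summed list had a median of 829 CPM over control members and 1262 CPM over cKO members, and 22 of 23 cKO members lay above the control median. Of the 197 control members 84 lay below every cKO member, and 120 of 196 did without the mesothelial-profile cells. Scnn1a, a subunit of the epithelial sodium channel, had 9.60 and 40.3 CPM, Atp1b1, of the sodium pump, 70.3 and 206 CPM, and the water channel Aqp5 165 and 30.4 CPM. Among 16 chemokine and cytokine genes 5 were higher and 4 lower, against the same shares. Il33, an alarmin, had 5.93 and 37.2 CPM, Il1a 209 and 61.6 CPM, and Ccl28, which draws IgA plasma cells to mucosa, 17.0 CPM and 1 UMI.

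Genes of other cell types were measured beside these results. The 6 stromal markers (Col1a1, Col1a2, Col3a1, Dcn, Lum and Pdgfra) summed to 85.8 CPM in control members and 841 CPM in cKO members, and 11 of 23 cKO members against 39 of 197 control members had a UMI of them. All 5 counted stromal markers were higher in cKO, against 16.5% of all genes. But Pdgfra turned from a log2 ratio of 1.57 to -3.39 without members rich in stromal or muscle genes. It turned to -0.34 with cell-free RNA subtracted, a subtraction that can be too large in cKO. Without the mesothelial-profile cells the sums were 34.2 and 232 CPM, with 3 of 5 higher and 1 lower, against 15.2% and 11.4% of all genes. Lum then turned from a log2 ratio of 2.45 to -2.16. The macrophage genes C1qa, C1qb, Lyz2, Tyrobp and Fcer1g had 0 UMIs in cKO members and 1 to 11 in control members. Cd68, a lysosomal gene on that list, had 70.3 CPM in control against 12.9 CPM in cKO. All 6 lymphoid genes were at 0 in cKO members, and 4 of them were at 0 in control too, where Klrk1 had 6 UMIs and Gzma 3, so no difference is read from them. The part of these differences in the other results was not tested, beyond the values given without the 4 cells.

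Of 3 counted smooth muscle genes 2, Acta2 and Des, were higher in cKO and 0 lower, against 16.5% and 10.7% of all genes. Without the mesothelial-profile cells 1 of 2, Acta2, was higher, against 15.2% of all genes. The genes described here were picked after their values were seen. Acta2, smooth muscle actin, had 109 UMIs in 29 control members (11.8 CPM) and 863 UMIs in 15 of 23 cKO members (656 CPM, 613 to 701), and no Acta2 UMI lay in a mesothelial-profile cell. Single cKO members ran from 0 to 5648 CPM with a median of 46.9. Des, the muscle filament desmin, had 5.28 and 25.8 CPM, but 1.67 CPM in cKO without the mesothelial-profile cells, a log2 ratio of -1.27 in place of 2.30. Cnn1, which encodes calponin, had 28 UMIs (3.02 CPM) and 13 UMIs (9.88 CPM), under the limit of 50 UMIs. Tagln, a partner of actin in smooth muscle, had 11.8 and 8.36 CPM, Mylk 4.96 and 1.52 CPM, and Myh11, the smooth muscle myosin, 1.73 CPM and 0 UMIs. The cKO cell-free profile held 766 CPM of Acta2, 881 CPM of Tagln, 741 CPM of Des, 676 CPM of Mylk, 261 CPM of Cnn1 and 244 CPM of Myh11.

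The genes that varied most among control members after thinning fell into a few groups. Heat shock genes led, with Hspa1b from 0 to 46212 CPM (median 154), Hspa1a from 0 to 29935 CPM (median 17.1) and Hspb1 from 0 to 40242 CPM (median 316). Secretory genes (Prap1, Sprr2f and Sprr2b), interferon genes (Rsad2 and Ifit1) and Hspa5 were also among the 15. The dissociation-stress list had medians of 9594 CPM in control against 9481 CPM in cKO per member. Summed, 9 of its 22 genes were at least 2-fold lower in cKO and 0 higher, among them Btg2 (524 and 75.3 CPM), against 10.7% lower among all genes. Among stromal cells 4 of 22 were higher and 0 lower, against 6.57% higher among all genes there. Its part in the other results was not tested.

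Within control the members were also set beside 850 shallower non-cycling epithelial cells, which differ from them by the rule's depth limit. Of 9552 genes 519 (5.43%) were at least 2-fold higher in the deep cells and 1094 (11.5%) lower. ER stress genes were higher in 6 of 12 cases and lower in 0, with Hspa5 at 5131 CPM in deep and 1962 CPM in shallow cells. Ankrd37 had 288 and 101 CPM and Clca1 900.0 and 470.1 CPM. Interferon genes were higher in 2 and lower in 10 of 40 cases, with Irf7 at 72.5 and 150.2 CPM and Isg15 at 362 and 591 CPM. Muscle markers were lower in 4 of 5 cases. In cKO only 38 such cells were present, and 537 of 4515 genes (11.9%) were higher and 444 (9.83%) lower in the deep cells. The count of genes higher in deep control cells moved from 519 to 814 with a limit of 10000 UMIs and to 168 with 30000, so it rests on the limit.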

How the data were processed

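Cells were droplet-captured and sequenced from transcript 3-prime ends, per the labels' protocols. The authors deposited raw UMI counts per gene and barcode, unfiltered, from Cell Ranger, version 4 per the file headers but 6.1.1 per the submitters' processing notes, which name mm10; the annotation was not given in the sources used here. The members and gene lists were chosen with earlier results of these data known. Counts were summed over members per library and scaled to CPM with Python 3.11.15; no count test was possible. TMM factors came from edgeR 4.0.16. Intervals (exact Poisson, conditional binomial, Clopper-Pearson) cover counting error only. A gene counted as 2-fold at a log2 ratio of 1 with 0.5 UMI added. In each direction 12 genes were named by the interval limit nearer to no difference, with at least 50 UMIs, in at least 25% of members, at most 50% in 1 cell and not under the cell-free level; mitochondrial, ribosomal, haemoglobin, immunoglobulin and unnamed genes were left out. The 15 most variable and the 15 most abundant genes per library and list members were also named. No doublet caller was run. Mx1, Mx2, Cxcl11 and Sprr2g were not analysed here. The ratio script was tested on simulated data.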

Additional observations from a re-analysis of the deposited data

Results flagged for a closer look

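The ER stress and hypoxia lists differed in direction between deep epithelial and deep stromal cells, and this difference was not tested, since each library is 1 sample. The median log2 ratio of the ER stress list was -1.02 in epithelial members and 0.87 in stromal cells, a difference of 1.89. For the hypoxia and glycolysis list the medians were -1.68 and 0.49, a difference of 2.17.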

How the results depend on the processing

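No paired analysis was possible because each group was 1 library. The interferon, oestrogen-response, hypoxia and ER stress counts stayed within 1.5 times their value under every setting run, and the settings for hypoxia, ER stress and proliferation and those without the mesothelial-profile cells were added after seeing the data. Progesterone-response genes higher in cKO numbered 1 of 9 counted, but 2 with a 10% mitochondrial limit, without cells rich in stromal or muscle genes, without the deepest members, with thinned cells or without mesothelial-profile cells, 3 with a marker share of 0.6%, with per-cell means or with 5 UMIs added, and 7 of 17 with at least 1 UMI; thinned cells left 7 counted. Proliferation genes higher numbered 8 of 10 counted, but 4 of 7 with a marker share of 0.6%, 4 of 6 with thinned cells, 4 of 5 with at least 200 UMIs and 14 of 18 with at least 1 UMI. Genes higher numbered 1482 of 8990, but 502 of 5512 with at least 200 UMIs and 6439 of 17494 with at least 1. Genes lower numbered 959, but 593 with 5 UMIs added, and, of the same totals, 632 with at least 200 UMIs and 1606 with at least 1, where 80.0% of calls were higher. Genes higher in deep than shallow control cells numbered 519, but 814 and 168 with limits of 10000 and 30000 UMIs and 808 with per-cell means; genes lower numbered 1094, but 418 of 6144 with at least 200 UMIs.

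Single genes that turned direction had few UMIs or carriers. Krt13 was 1.69 (log2) and Axin2 0.0039 with a limit of 10000 UMIs, and Axin2 0.29 with thinned cells, in place of -3.19 and -1.15. Upk3b was -0.55 with a marker share of 0.6% and -0.43 without mesothelial-profile cells, in place of 3.14. Pdgfra was -3.39 without cells rich in stromal or muscle genes and -0.34 with cell-free RNA subtracted, in place of 1.57, and H2-Aa 0.78 with subtraction, where 1.64 and 0 UMIs were left, in place of -3.13. Cxcl5 was -0.40 without the deepest members, in place of 3.02. Lum was -2.16 and Des -1.27 without mesothelial-profile cells, in place of 2.45 and 2.30. The cause of these changes was not tested, and the subtraction of cell-free RNA in cKO can be too large. The 23 cKO members limit every cKO value.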
